A study of Bos taurus with 18 samples.

Results

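Clones D and K are 2 of 17 clonal populations of bovine mesenchymal stem cells (MSCs) whose RNA was sequenced, and they were set against the 15 other clones. They were chosen because their expression profiles lay close to each other in these same counts. The difference between them and the 15 is therefore given as a description, without a test, and the values below show how 2 similar clones of 1 animal differed from the rest. The series holds 18 samples from 1 donor, of which the remaining sample is a heterogeneous, many-cell MSC population (Het). Het was left out of the calls, and its values are only described beside those of the clones. Every sample was bone marrow-derived cattle MSCs grown on tissue culture plastic in DMEM with serum and antibiotics, without a chondrogenic stimulus, and collected at passage 1. Each clone was expanded from a single cell and sequenced as 1 library, so that D and K are separate clones and not repeats of 1 culture. No clone was prepared or sequenced again, and differences between clones hold the differences between libraries as well. The labels give no age, and the study's methods describe the animals as juvenile cows.

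MSCs of the bone marrow are stromal progenitor cells that adhere to plastic and can form cartilage, bone or fat cells when induced. In expansion culture they divide, secrete a fibroblast-like matrix of collagens and glycoproteins, and release growth factors and cytokines that act on neighbouring cells. Clones of 1 animal can differ in all of these, and the study asked whether such differences before induction foretell the cartilage matrix that a clone later deposits.

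The labelled cell type was checked against markers of MSCs and of other marrow cells. Levels are given as CPM, a gene's share of the reads on genes after correction for library composition. NT5E, the ectonucleotidase CD73, stood at 287 CPM in D and 267 in K, against 285 to 713 in the 15. THY1 (CD90) stood at 252 and 321 CPM (15 others 213 to 594) and ENG (CD105) at 137 and 154 (143 to 292). CD44, the hyaluronan receptor, stood at 373 and 319 (174 to 553). K thus lay beneath all 15 for NT5E, and D for ENG. All 7 MSC markers had reads in D and K, with 16519 and 22372 reads in sum against 20309 to 39506 in the other clones. These and the following sums of reads are not corrected for depth. Reads of 9 macrophage and leukocyte markers came to 28 in D and 81 in K, against 23 to 87 in the 15, and 3 of the 9 had no read in either clone. Endothelial markers (7 genes) had 19 and 60 reads against 34 to 133, and erythroid markers (5 genes) had 3 and 3 against 0 to 12.

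D held 11484812 reads on genes and K 13775435, against 12307737 to 18458157 in the 15 (median 14507239), so that D was the shallowest clone. The difference in depth did not pass a two-sided exact permutation test (p = 0.0588, adjusted over 3 library measures p = 0.0882, smallest p possible 0.0147). Reads on genes are a sum of the counts in which the pair was chosen, so nothing is concluded from this p. Reads outside genes made up 19.967% in D and 20.951% in K (15 others 18.779 to 26.809%, exact permutation p = 0.5588). Reads ambiguous between genes were 0.1923% in D and 0.1827% in K (15 others 0.164 to 0.1845%, exact permutation p = 0.0441, adjusted p = 0.0882). At these depths 1 read was worth 0.0569 to 0.0914 CPM, and genes of a few reads are given in reads below.

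How close D and K were was measured as the root mean square of their log2 differences over 11220 genes with more than 1 CPM in at least 2 clones. The value was 0.447 for D and K, which placed them at rank 5 among all 136 pairs of clones, whose values ran from 0.227 to 1.004 with a median of 0.734. C and O were closest (0.227), followed by E and F (0.407), B and E (0.438) and B and F (0.439), and the next pair after D and K was B and J (0.474). D and K were each other's nearest clone. After K, D was nearest to B (0.547) and F (0.577), and after D, K was nearest to F (0.480) and B (0.485). D was farthest from L (0.962) and K from O (0.924). Between D and K 4.29% of genes differed by more than 2-fold, compared with a median of 11.9% over all pairs, and Pearson's r across genes was 0.982, where genes are not independent replicates.

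**Figure D1:**
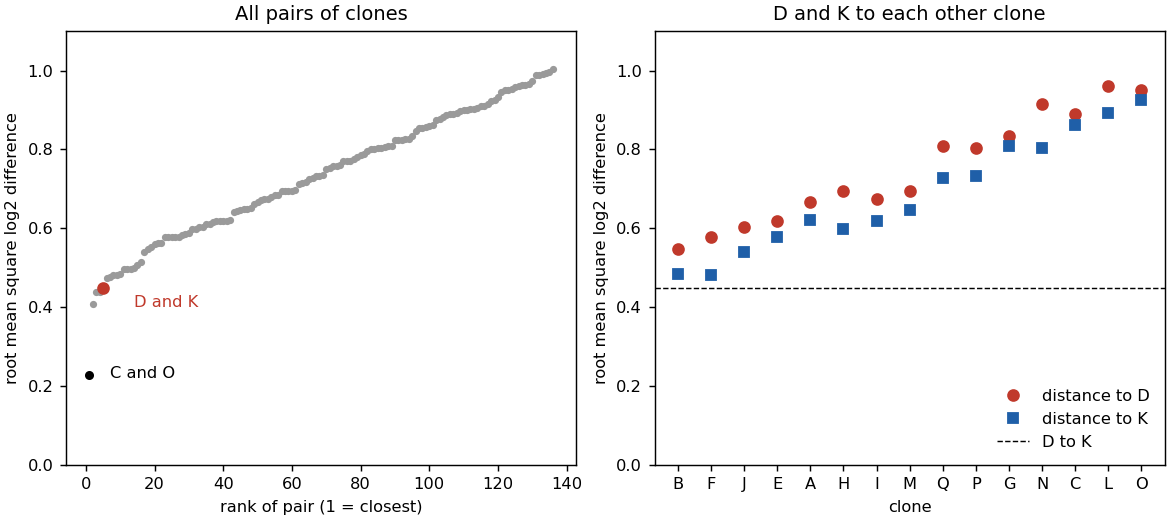
The left panel plots the root mean square log2 difference of each pair of clones against its rank (1 = closest), and the right panel plots the distance of D (circles) and of K (squares) to each of the 15 other clones. D and K hold rank 5 of 136 pairs at 0.447 (dashed line on the right), and no other clone lies as close to either.

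The libraries of D and K were not 1 library deposited again. Their counts differed with a chi-square of 32.1 per gene over 10757 genes with at least 20 reads in the pair, where counting error alone gives 1, and E and F differed by 22.6. C and O, the closest clones, still differed by 4.98. The biological coefficient of variation, which is the spread of expression left after counting error, was 15.5% between D and K, 13.9% between E and F, 4.66% between C and O and 35.5% over all clones.

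A gene was called when D and K both lay outside the range of the 15 and the mean log2(CPM + 0.25) differed by at least 1. This held for 65 genes higher in D and K (0.579% of the 11220) and 36 lower (0.321%), 101 genes in all (0.9%). Without the minimum difference 299 genes lay above the 15 in both clones (2.66%) and 194 below (1.73%). Since D and K were chosen on these counts, nothing is read from these shares. The higher genes differed by 1.01 to 3.496 on the log2 scale (median 1.43) and the lower genes by 1.002 to 3.58 in size (median −1.42). The threshold fell between WDSUB1 (1.01, called) and LTBP2, a matrix protein (0.96, not called), on the higher side. On the lower side GALNTL1 (−1.002) was the called gene nearest to the threshold. Over all genes the median difference was 0.00 and 5622 of 11220 were positive. The counts rested on both clones, and K alone lay outside the 15 by the minimum difference for 122 higher and 73 lower genes, and D alone for 203 and 196. D lay further from the 15 than K in 49 of the 65 higher genes and 27 of the 36 lower genes. The gap between D or K, whichever was nearer, and the next of the 15 was small for most calls, with a median of 0.27 for higher and 0.25 for lower genes on the log2 scale. It exceeded 1 for CDKN1C, IGFBP2 and FBLN1 among the higher genes and for SPP1 among the lower.

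FBLN1, which encodes the matrix glycoprotein fibulin-1, had the largest difference among the higher genes. It had 83.9 CPM in D and 41.0 in K, whereas the 15 had a lowest value of 0.328, a median of 5.74 and a highest of 20.1. D and K thus stood apart from every other clone, with a mean log2 difference of 3.496 where the SD over the 15 was 1.51. SPON1, the secreted matrix protein spondin 1, showed 36.6 and 40.8 CPM against 3.07 to 26.9 (median 5.20). CDH6, a cadherin of cell-cell adhesion, showed 6.62 and 7.83 CPM against 0.124 to 5.39 (median 0.862). For both genes the highest of the other clones approached D and K, although the median clone lay far below. HMCN1 (hemicentin 1, 877 and 994 CPM against 73.1 to 625) and CDH13 (T-cadherin, 1601 and 1386 CPM against 185 to 958) were abundant genes of the same kind, named here after their values were seen.

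Several secreted regulators of growth factor signalling were also higher. IGFBP2, an IGF-binding protein, reached 1437 CPM in D and 1234 in K, against a lowest value of 134, a median of 309 and a highest of 591 in the 15. Its log2 difference was 2.18 with an SD over the 15 of 0.65, and the groups did not overlap. CHRDL1, a secreted antagonist of BMPs, stood at 42.7 and 63.3 CPM against 1.46 to 29.0 (median 6.25). SCUBE2, which helps release Hedgehog ligands from the cell, stood at 12.3 and 4.67 CPM against 0 to 2.84 (median 0.536). PCSK6, a proprotein convertase that activates TGF-beta family precursors, stood at 38.2 and 35.8 CPM against 1.83 to 22.3 (median 6.79). The Wnt ligand WNT2B (6.35 and 6.46 CPM against 0.365 to 4.41) and the Wnt amplifier RSPO1 (18 and 29 reads against 0 to 12) were low in every clone and highest in D and K. RSPO1 exceeded 1 CPM in D and K alone (highest of the 15 0.808), so the filter itself placed it above the 15. TTR, the carrier of thyroid hormone and retinol-binding protein, stood at 52.9 and 56.2 CPM against 0.697 to 30.4 (median 4.46), with clone N as the highest of the 15.

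CDKN1C, the cell cycle inhibitor p57, had 19.5 CPM in D and 13.7 in K. The 15 had a lowest value of 0.197, a median of 1.05 and a highest of 5.08 in clone C, and the log2 difference was 3.43 (SD over the 15 1.15). It was the called gene among 15 measured cell cycle inhibitors and p53 targets, of which 8 were positive.

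The other higher genes at the head of the order had varied roles. A4GALT, the synthase of the glycolipid globotriaosylceramide, was measured at 27.7 and 12.9 CPM against 0.417 to 8.40, and GCNT2, which branches poly-N-acetyllactosamine chains, at 11.6 and 5.82 against a highest value of 3.90. The transcription factor KLF15 was measured at 5.81 and 2.80 CPM with the nearest clone, F, at 2.33. The kinesin KIF1A (21.7 and 25.2 CPM against up to 21.1) barely cleared the other clones. The ephrin receptor EPHB6 had 17 and 39 reads against 0 to 17, or 1.52 and 2.80 CPM against up to 1.24. EPAS1, which encodes the hypoxia-inducible factor HIF-2alpha and was named after its values were seen, had 516 and 308 CPM against 55.2 to 263 (median 169). Clone F was the next highest after D and K for 25 of the 65 higher genes.

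**Figure D2:**
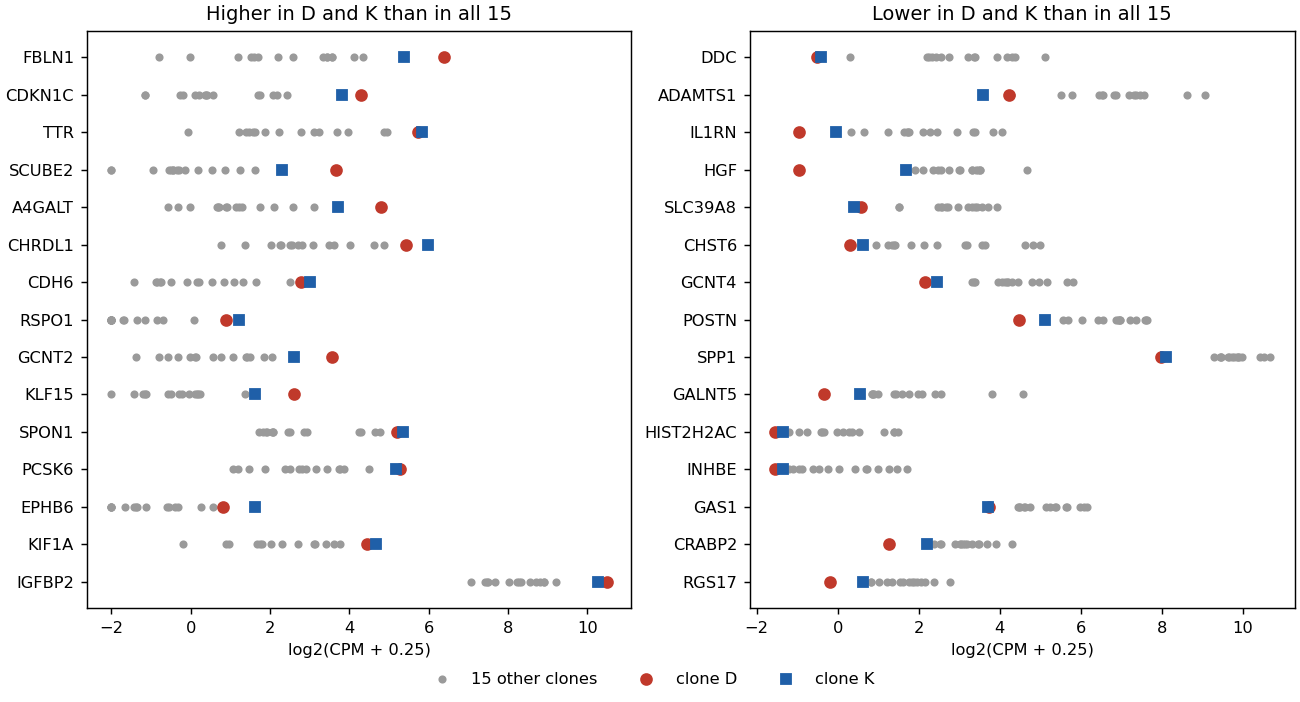
Each row is a called gene, with the 15 with the largest mean difference higher on the left and the 15 lower on the right, and each point is 1 clone on the scale log2(CPM + 0.25) (grey, the 15 other clones, red circles D, blue squares K). D and K lie beyond every grey point in each row by construction, with wide gaps for FBLN1, CDKN1C, IGFBP2 and SPP1 and narrow ones for genes such as KIF1A and RGS17.

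Among the lower genes, SPP1, POSTN and PRELP encode matrix proteins. SPP1 (osteopontin, a phosphoprotein of bone matrix used as an osteogenic marker) had 250 CPM in D and 273 in K, against a lowest value of 626, a median of 882 and a highest of 1625. D and K were alike and well below the narrow range of the other clones, with a log2 difference of −1.81 and an SD over the 15 of 0.41. POSTN (periostin, a matrix protein of periosteum and fibrous tissue) had 21.9 and 34.3 CPM against 47.1 to 197 (median 123). PRELP, a small leucine-rich proteoglycan, was close to the others in K (126 in D and 173 in K against 174.5 to 567). ADAMTS1, a protease that cleaves aggrecan and versican, had 18.5 and 11.9 CPM against 19.2 to 536 (median 117). Its log2 difference was −2.98 with an SD over the 15 of 1.18, and the lowest of the 15, clone L, was at the level of D.

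Growth factors and cytokine regulators formed another portion of the lower genes. HGF, the hepatocyte growth factor that stromal cells secrete, had 3 reads in D and 41 in K against 48 to 410, or 0.268 and 2.95 CPM against a median of 7.79. D was far below the 15 whereas K lay just beneath the lowest, clone F. The log2 difference was −2.66 for D and K together, −3.97 for D alone and −1.35 for K alone. Its receptor gene MET, named after its values were seen, had 23.7 and 27.8 CPM against 28.3 to 139 (median 46.9). FGF7, a fibroblast growth factor that acts on epithelia, had 41.0 and 61.9 CPM against 73.3 to 243 (median 107). IL1RN, the interleukin-1 receptor antagonist, had 3 and 10 reads against 15 to 269. GAS1, a Hedgehog co-receptor, had 13.2 and 12.8 CPM against 21.5 to 71.5 (median 37.4).

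Enzymes, carriers and other genes made up the remainder of the named lower genes. DDC, the aromatic amino acid decarboxylase, had the largest difference (−3.58), with 5 reads in D and 7 in K against 15 to 563. SLC39A8, a zinc and manganese transporter, had 1.25 and 1.08 CPM against 2.60 to 14.9 (median 7.58). The glycosylation genes CHST6 (11 and 18 reads against 25 to 524), GCNT4 (4.20 and 5.17 CPM against 9.74 to 56.2) and GALNT5 (6 and 17 reads against 17 to 361) were all lower. CRABP2, a retinoic acid-binding protein, had 2.15 and 4.38 CPM against 4.95 to 19.4, and the signalling regulator RGS17 had 7 and 18 reads against 21 to 108. LDHA, the lactate dehydrogenase of glycolysis, had 58.0 and 42.7 CPM against 69.1 to 194 (median 121). HIST2H2AC and INHBE had 1 read in D and 2 in K each, against 3 to 41 and 2 to 53 reads, and no fold is given for them. The calls of FGF7 and CRABP2 were lost without D, that of LDHA without K, and that of PRELP without D or without clone N. Of the 36 lower genes 9 had fewer than 10 reads in both D and K, which are thinly measured.

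Some called genes were neighbours on the chromosome. In the gene order of the ARS-UCD2.0 annotation, to which 99 of the 101 called genes were matched, 4 pairs of adjacent measured genes were called in the same direction. No background number of such pairs is given, so nothing is read from this count. These were FAM118A with FBLN1, B4GALT6 with TTR and LIMS2 with GPR17 among the higher genes, and PAQR9 with PCOLCE2 among the lower. Whether the reads were counted by strand is not given in the sources used here, so reads shared by overlapping neighbours cannot be told apart.

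The markers of cartilage, fat and division did not set D and K apart. ACAN, the cartilage proteoglycan aggrecan, had 302 CPM in D and 152 in K, while the 15 had a lowest value of 18.5, a median of 114 and a highest of 2735, and 5 and 6 of the 15 lay above D and K. COL2A1, the collagen of cartilage, had 70.4 and 160 CPM against 16.8 to 1223 (median 58.1). SOX9, the transcription factor of chondrocytes, had 4.29 and 5.89 CPM against 2.85 to 23.0 (median 11.9), a difference of −0.95. COMP, a cartilage matrix protein, had 1.97 and 6.18 CPM against 0.140 to 50.8, and LPL, the lipase used as an adipogenic marker, had 2.24 and 8.19 against 0.837 to 13.6. The proliferation marker MKI67 had 56.4 and 71.1 CPM against 21.7 to 594 (median 95.1). In each of these genes D and K lay within the range of the other clones.

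The genes were then taken by pathway, with 33 lists of 595 genes, of which 453 were measured. Of these 453, 5 were called higher (1.1%) and 8 lower (1.77%), beside 0.579% and 0.321% over all genes, and 22 lists held no called gene. The called members were FBLN1, CDKN1C, CHRDL1, WNT2B and IGFBP2 on the higher side and POSTN, PRELP, ADAMTS1, SPP1, FGF7, HGF, LDHA and CRABP2 on the lower side.

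Genes of replication and mitosis had a median log2 difference of −0.894, with 0 of 23 positive and none called. A score, the mean log2 deviation of the list from the mean of the 17 clones, was −0.863 in D and −0.662 in K, against −1.85 in clone M to 1.88 in clone O with a median of −0.251. D and K thus lay in the lower portion of a wide range, with 3 and 5 of the 15 below them. CCNB1, a mitotic cyclin, had 6.80 and 6.75 CPM against 2.61 to 66.9 (median 12.2), and the mitotic kinase gene PLK1 had 10.2 and 13 against 7.34 to 121 (median 19.6), and these were the most negative genes of the list. The replication genes at its other end were mid-range, as MCM3, a subunit of the replicative helicase, had 29.2 and 28.2 CPM against 12.3 to 148 (median 28.1). Whether the level of these genes moved with the higher CDKN1C was not tested.

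Smooth muscle contractile genes had the highest median of the lists (0.784), with 12 of 14 positive and none called. The score was 0.335 in D and 0.968 in K against −1.13 to 0.985, with 11 and 14 of the 15 below them. Clones F (the highest), E, A and I lay above D, and F also above K. The negative genes were SMTN (−0.567) and TAGLN2 (−0.153). K alone was above the 15 for CALD1, a regulator of actomyosin (2707 CPM against up to 2297, with D at 1733), MYL9, a myosin light chain (1330 against up to 1167, with D at 977), and SYNPO2, an actin-binding protein (267 against up to 259, with D at 54.2). ACTA2, smooth muscle actin, had 3308 CPM in D and 5984 in K against 458 to 5904 (median 2625). In these 4 genes K exceeded D, whereas DES, the muscle intermediate filament desmin, had 366 CPM in D, above all 15 (highest 361), and 178 in K, within them.

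**Figure D3:**
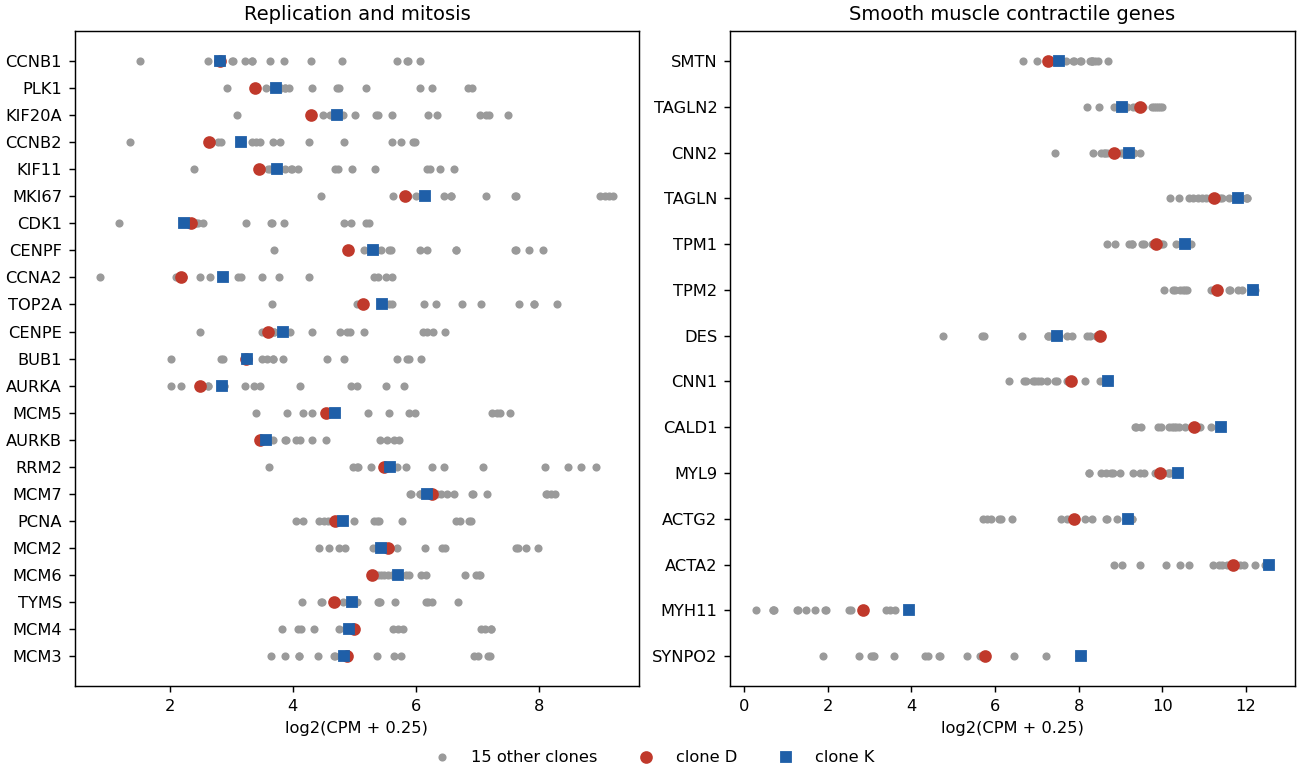
Each row is a gene of the replication and mitosis list (left) or of the smooth muscle contractile list (right), in order of the mean difference, with 1 point per clone on the scale log2(CPM + 0.25). D and K sit among the lower clones in mitotic genes such as CCNB1 and near the middle in MCM3, and K is at the right edge for MYH11, SYNPO2 and CALD1 and D for DES.

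Cytokines and chemokines had 2 of 10 measured genes positive and a median of −0.715. Their score was −0.652 in D and −0.723 in K, both beneath the lowest of the 15, clone Q at −0.489, although no member was called. Thinly measured genes enter this score, such as PTGS2 (5 reads in D and 0 in K), TNFAIP6 (4 and 3) and TNFAIP3 (9 and 12). IL6, an inflammatory cytokine, had 3.67 and 1.65 CPM against 1.79 to 111 (median 18.6), CXCL6, a neutrophil chemokine, had 1.43 and 6.46 against 1.35 to 38.0 (median 13.03), and LIF, a cytokine of the IL-6 family, had 10 and 16 reads against 12 to 590. K was beneath all 15 for IL6 and D was not. CCL5, a chemokine of T cells and monocytes, went the other way, with 5.73 and 5.53 CPM against 0.371 to 21.9 (median 2.26).

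The IGF axis had 8 of 12 genes positive and a median of 0.514. Besides IGFBP2, the receptor genes IGF1R (291 and 289 CPM against up to 279) and IGF2R (635 and 526 against up to 520) lay above all 15 by less than the minimum difference. The 4 negative genes included IGFBP5 (8.05 and 12.1 CPM against 3.28 to 95.6, median 38.8) and PAPPA (6.80 and 8.33 against 5.59 to 51.8, median 15.8). The score of the list, 0.328 in D and 0.278 in K, lay within the 15 (−0.791 to 0.4). Glycolysis and hypoxia genes had 2 of 16 positive and a median of −0.446, with LDHA called, and cholesterol synthesis genes had 0 of 17 positive and a median of −0.302, with none called. The cholesterol score was nevertheless within the 15 in both clones. It was −0.079 in D and −0.616 in K, against −1.18 in clone F to 0.72 in clone O (median 0.24).

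Among the matrix lists, fibroblast collagens had 6 of 18 positive (median −0.218), matrix proteases and their inhibitors 5 of 19 (−0.351), glycoproteins and elastic fibres 10 of 18 (0.242) and cartilage matrix 8 of 12 (0.153). Osteoblast genes had 4 of 14 positive (−0.357), with SPP1 as the called gene, and a score of −0.65 in D beneath all 15 whereas K was inside their range. The medians of the signalling lists were 0.178 for the TGF-beta pathway, 0.156 for BMPs, 0.082 for Wnt and 0.233 for Notch. The Wnt score was beneath all 15 in D (−0.339 against a lowest of −0.225) and within them in K, and the Notch score was above all 15 in K (0.504 against a highest of 0.406) and within them in D. D was also beneath all 15 in the score of matrix proteases (−0.543), proteoglycans (−0.454), retinoid genes (−0.402) and 4 endothelial markers (−0.887). It was above them in that of glycoproteins (0.542), with K within the range of the 15 for each. Every gene counts alike in a score, and some members had few or no reads in D, the shallowest clone. Among these were HAS1 (0 reads), ADAMTS12 (1) and MMP9 (6), and IBSP and BGLAP (0 each) among the osteoblast genes. HOX genes, which mark position along the body, had a median of −0.12 with 11 of 23 positive. MSC surface and stromal markers had 4 of 15 positive (median −0.365), with no gene called. In this list MCAM (CD146), a pericyte marker, was at 12.5 CPM in D and 49.8 in K against 2.51 to 17.6 (median 5.67), so that K was above all 15 and D within them.

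**Figure D4:**
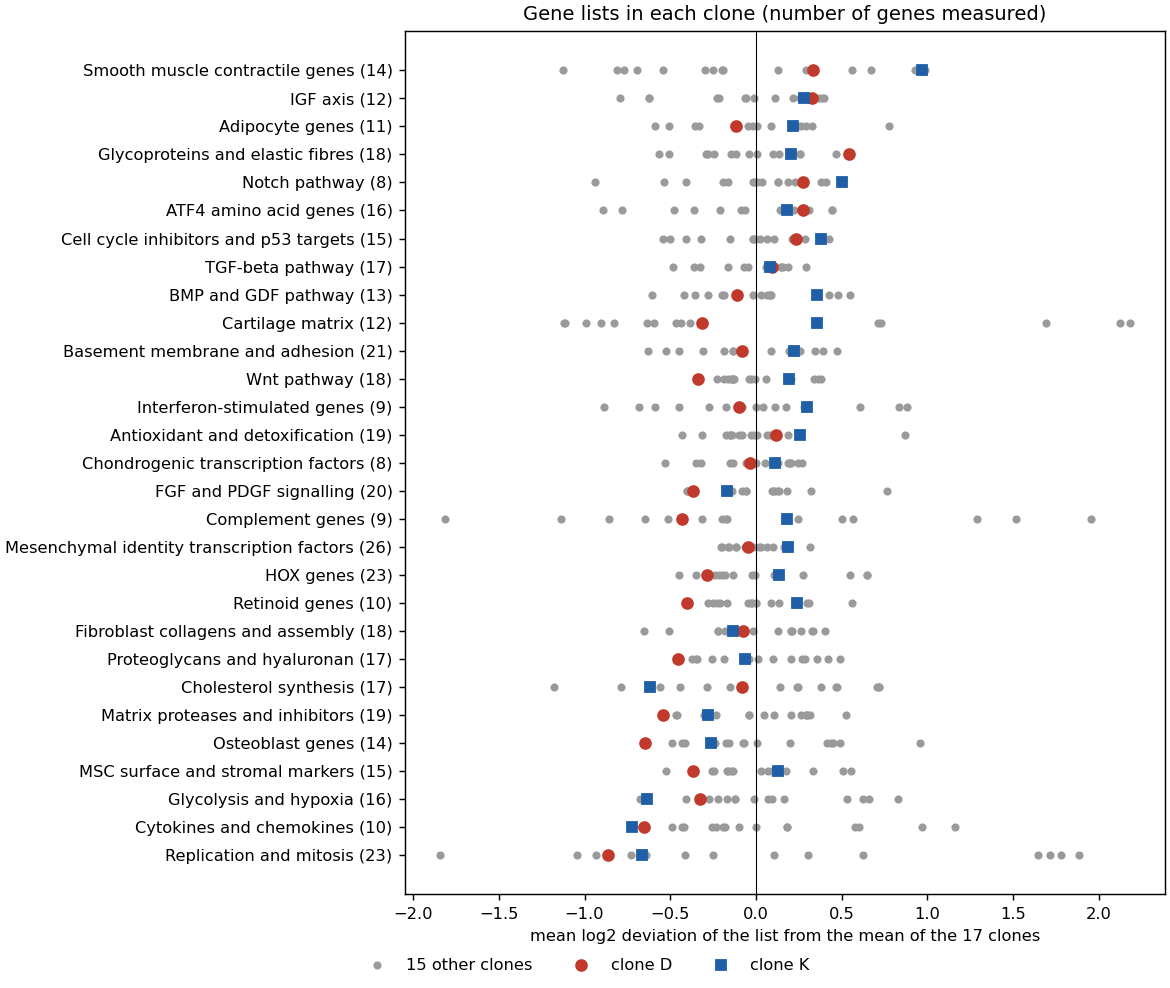
Each row is a list with at least 8 measured genes (number in brackets), in order of the median difference of its genes, and each point is a clone's mean log2 deviation from the mean of the 17 clones. D and K sit on the high side for smooth muscle genes and on the low side for cytokines and for replication and mitosis, and only the cytokine list has both beneath the lowest of the 15.

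D and K also differed from each other. Of 9286 genes with at least 5 CPM in D or K, 141 were at least 2-fold higher in K and 78 at least 2-fold higher in D, and the median log2 difference (K minus D) was −0.01. With 1 library per clone these differences have no replicate check. Genes far higher in K were GNG11, a G protein subunit (3 reads in D and 115 in K, log2 difference 4.04), the Wnt inhibitor SFRP4 (32 and 413 reads), the anticoagulant protein S gene PROS1 (67 and 737) and ASB16 (6 and 87). Genes far higher in D were RASGRF2, a Ras exchange factor (457 reads in D and 35 in K, log2 difference −3.90), the glutamate receptor GRIK2 (71 and 5), NDUFA4L2, a hypoxia-induced mitochondrial protein (525 and 92), and ASZ1 (65 and 10). The gamma-protocadherins moved in opposite directions, with PCDHGA7 at 9 reads in D and 137 in K and PCDHGA5 at 68 and 10, and since genes of this cluster share their last exons their counts are uncertain. RASGRF2 stood at 40.9 CPM in D, above all 15 (highest 13.8), whereas K lay within them.

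The heterogeneous population was closest to K of all 17 clones (root mean square log2 difference 0.598), followed by D (0.615), J (0.622) and B (0.634), and it was farthest from O (1.09). It is 1 library, scaled here over all 18, and its values are set beside those above, which were scaled over the 17 clones, without a test. Het had 150 CPM of FBLN1, 37.4 of CDKN1C, 58.6 of TTR, 56.6 of CHRDL1 and 49.6 of PCSK6, which like D and K are beyond the highest of the 15. SCUBE2, CDH6, RSPO1, KLF15, EPHB6 and KIF1A were also above the 15 in Het. IGFBP2, at 904 CPM, lay between the 15 and D and K. A4GALT (5.32 CPM), GCNT2 (3.87), SPON1 (25.9) and WNT2B (1.51) lay within the 15. POSTN (19.1 CPM), HGF (1.58), SLC39A8 (0.722) and LDHA (37.5) were lower in Het than in the 15. The same held for GCNT4, GALNT5, HIST2H2AC, RGS17, PRELP and FGF7. SPP1 (381) lay between the 15 and D and K. Within the 15 lay ADAMTS1 (62.2), DDC (1.31), IL1RN (1.38), CHST6 (2.76), INHBE (1.84), GAS1 (33.2) and CRABP2 (7.16). Het held 2182 reads of the 9 macrophage and leukocyte markers, against 28 in D and 81 in K, and the part of such RNA in its values was not tested.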

How the data were processed

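Poly(A) RNA of 18 MSC samples (17 clones and Het, from 1 donor) was sequenced with single-end reads. The authors aligned reads to bosTau7 with STAR 2.3.0e and counted them on RefSeq genes (annotation release 103) with HTSeq, and the deposited values are raw counts of 16989 genes, without normalization. SAMtools is also named in the submitters' processing notes. Of these genes 2614 had no reads in any clone. The 5 lines that name no gene stayed out of library sizes. A combined table with identical counts was not used.

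Counts were scaled by TMM (edgeR 4.0.16, R 4.3.3, factors 0.889 to 1.156) to CPM and taken as log2(CPM + 0.25), so that differences of low genes are understated. Genes with CPM above 1 in at least 2 of the 17 clones were kept (11220, of which 2 passed through D and K alone). A gene was called when D and K both lay outside the range of the 15 with a mean log2 difference of at least 1, and no p is given since D and K were chosen from these counts. Library measures were compared by two-sided exact permutation tests with Benjamini-Hochberg adjustment over 3. SDs are over the 15 clones (n = 15). The spread is that between clones of 1 animal, each sequenced once. Depths are in the report, and 3 reads are the limit that a count of 0 allows, for counting error only. The biological coefficient of variation is edgeR's common dispersion of a pair taken as 1 group. Counts of gene families that share sequence are uncertain.

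The members, gene lists and rules were chosen with earlier results of these data known. Named genes are the 15 called genes with the largest difference each way, called list members (up to 5 a list), ACAN, COL2A1, SOX9, COMP, SPP1, LPL and MKI67, and the 5 genes each way that differed most between D and K with a CPM of at least 5 in either. Other members of the lists are given as examples, and these, like all further genes, were picked with their values in view. Gene names were matched to the ARS-UCD2.0 RefSeq table (10927 of the genes kept, 97.39%), which served for names and the order of neighbouring genes. None of its coordinates are printed. The calling was tested on simulated data. Alternatives were scaling by library total or DESeq2 1.42.0 size factors, a pseudocount of 1, no filter, no minimum difference, and clones left out. Other steps ran in Python 3.11.15 (scipy 1.17.1, numpy 2.4.6, matplotlib 3.10.9, pandas 2.3.3).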

Additional observations from a re-analysis of the deposited data

How the results depend on the processing

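The counts of 65 higher and 36 lower genes were 78 and 36 with scaling by library total, 64 and 38 with DESeq2 size factors, 49 and 26 with a pseudocount of 1, and 75 and 38 without a filter. Without a minimum difference they were 299 and 194. Leaving out D gave 122 and 73 genes, and leaving out K gave 203 and 196, where the remaining clone alone had to lie outside the 15, so that the rule is easier to meet. Leaving out 1 of the 15 gave 58 (without O) to 82 (without F) higher genes and 33 (without A) to 50 (without M) lower genes. Over all these omissions the range was 58 to 203 and 33 to 196, and without M and N together it was 80 and 58. The distance between D and K was 0.360 to 0.452. Over the same omissions the differences in library measures ranged from −3447000 to −1156000 reads on genes, from −1.51 to −0.53 percentage points outside genes and from 0.00884 to 0.0184 ambiguous, and none passed the threshold after adjustment.

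Of 34 called genes that the naming rule picked, 28 stayed called under every alternative that tested them. HIST2H2AC and INHBE lost the call with a pseudocount of 1, CRABP2 and FGF7 without D, LDHA without K, and PRELP with library totals, without D, without N and without M and N. RSPO1 could not be tested without D or without K. Of 1096 values of the named genes 1079 moved by less than 1 SD of the 15, and 0 called values changed sign. The depth of D limits the genes with a few reads. No paired analysis was possible because D, K and the 15 are different clones, each sequenced once.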
